A study of Mus musculus with 20 samples.

Results

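The 6 libraries described here compare translation in mouse embryonic stem cells that carry alanine in place of the serine of eIF2α that stress kinases modify (eIF2αA/A, KI) with that in wild-type cells (eIF2α+/+, WT), both grown in LIF/2i. They were chosen by their labels: the 3 KI and the 3 WT Ribo-Seq libraries made from LIF/2i cultures without RNase I, out of 20 libraries in all. In these libraries micrococcal nuclease (MNase) trimmed the RNA between ribosomes. LIF/2i is leukaemia inhibitory factor at 1000 U/mL with PD0325901, which inhibits MEK, and CHIR99021, which inhibits GSK3. Both genotypes were held in it for 6 days, in serum-free medium with 10% KnockOut serum replacement. All libraries share the use of cycloheximide and the selection of fragments of 25 to 40 nt. The same genotypes in LIF alone (3 MNase libraries each) and the LIF/2i libraries cut with RNase I (2 of each genotype) serve only to set values beside those of the 6.

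eIF2 brings the initiator tRNA to the ribosome. When one of 4 kinases phosphorylates its alpha subunit, it blocks its own exchange factor eIF2B, general initiation slows, and a few mRNAs with upstream reading frames, Atf4 above all, are translated more. This is the integrated stress response, and the alanine form of eIF2α cannot enter it. The 2 inhibitors hold embryonic stem cells in the naive state by blocking the ERK cascade and by stabilising beta-catenin.

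The WT libraries held 2859076, 3380287 and 3912780 footprint counts and the KI libraries 6998177, 8374086 and 7466197, so depth and genotype did not overlap. Gene counts cannot show the alanine change itself, and no label tells if the replicates came from separate cultures or if a line was 1 clone. The p-values therefore measure the spread between these samples. No RNA-seq was used, so a footprint difference combines RNA level and translation, and in bulk samples fewer cells of a type and less RNA per cell cannot be told apart. Markers of embryonic stem cells summed to between 4931 and 5410 CPM, the TMM-scaled share of a library's counts, in WT and between 4726 and 5102 in KI. Endoderm markers summed to 1243 to 1403 CPM in WT and 1488 to 1623 in KI, and fibroblast markers to 4094 to 5183 and 4531 to 4960. Mesoderm and primitive streak markers summed to 26.1 to 33.3 CPM in WT and 19.8 to 33.9 in KI. Of 21 fibroblast markers only the defining genes Lum and Dcn had 0 counts in all 6, and of 10 mesoderm markers only Mesp1.

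KI 1 stood apart from KI 2 and KI 3. The Spearman correlation over tested genes was 0.995 between KI 2 and KI 3, 0.965 between KI 1 and each of them, and 0.970 to 0.983 among the WT libraries. On the main axis of variation, which held 52.7% of it, a principal component analysis placed KI 1 at 17.8 between the WT libraries (−42.7 to −37.6) and KI 2 and KI 3 (55.4 and 47.2). Eif2s3y, a Y-linked eIF2 subunit gene, was at 89.7, 24.1 and 97.1 CPM in WT 1, 2 and 3. In KI 1, 2 and 3 it was at 32.5, 0.896 and 0.706 CPM. Its level was thus low in KI 2 and KI 3, and KI 1 lay within the WT range, above WT 2 only. The Y-linked genes Ddx3y, Uty and Kdm5d were likewise low in WT 2 and lower still in KI 2 and KI 3. Ddx3y was at 135, 18.8 and 154 CPM in WT 1, 2 and 3 and at 69.9, 1.02 and 0.706 CPM in KI 1, 2 and 3.

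Several stretches of neighbouring genes were shifted together in single libraries. A window of 61 tested genes was moved along the gene order of the RefSeq table, and stretches of at least 30 genes with a window median past 0.5 on the log2 scale were listed after the data had been seen. There were 8 of them with 672 genes. On chromosome 4 the 285 genes from Srsf4 to Noc2l, up to the last tested gene, had a median of −0.98 in KI 2 and −0.92 in KI 3 against the WT mean, and −0.10 in KI 1. In KI 2 90.5% of them lay below the WT mean. Their medians in the LIF libraries of KI 1, 2 and 3 were −0.11, −0.99 and −1.03. The pattern was thus that of the replicate number in both media. On chromosome 6 the 93 genes from Zfp786 to Capg were at −1.09 in KI 1 but at −0.07 and −0.11 in KI 2 and KI 3. On chromosome 7 the 78 genes from Fbrs to Tubgcp2 were at 0.57 in KI 2, 0.60 in KI 3 and 0.11 in KI 1. WT libraries had such stretches too: the 68 genes of chromosome 3 from Trmt13 to Dapp1 were at 0.85 in WT 2. The stretches held 161 of the 3250 called genes, 4.95% of them. Of their genes 24% were called, beside 25.5% outside. The direction differed: 39 rose and 122 fell in them, while 1734 rose and 1355 fell outside. In the chromosome 4 stretch 4 rose and 71 fell. Genes in them are marked as such where they are described, and the cause of the shifts was not tested.

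**Figure D1:**
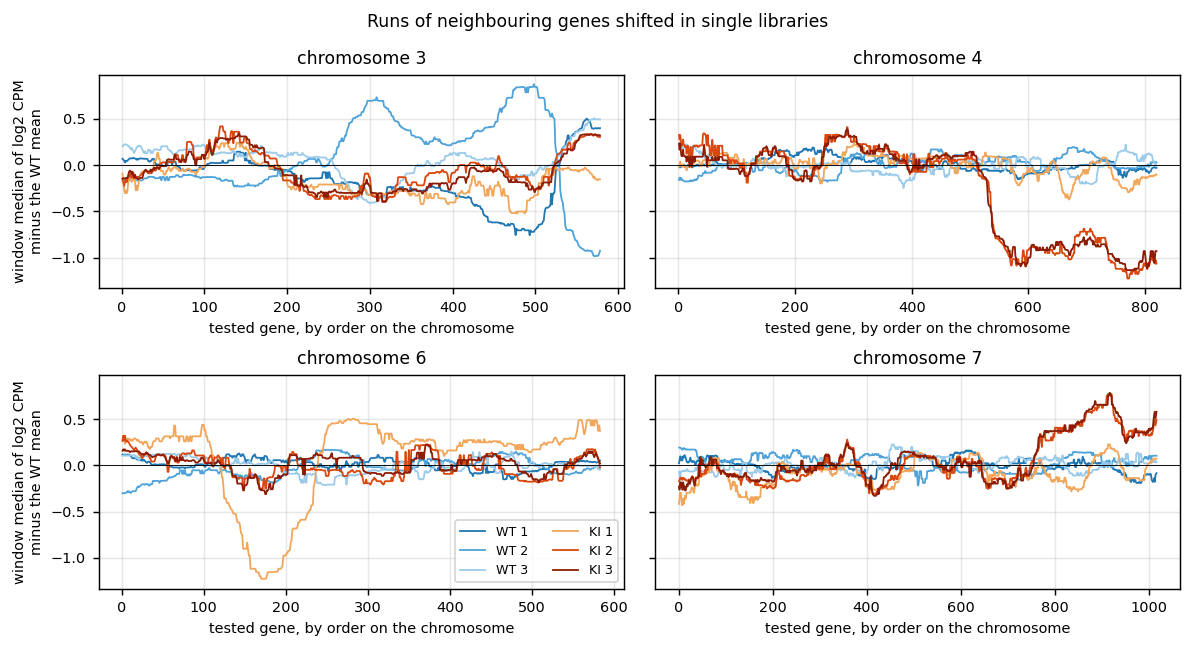
Median over 61 neighbouring tested genes of log2 CPM minus the mean of the 3 WT libraries (vertical axis) along the gene order of 4 chromosomes (horizontal axis), 1 line for each library. KI 2 and KI 3 drop together at the end of chromosome 4 (−0.98 and −0.92 over 285 genes), KI 1 drops on chromosome 6 (−1.09 over 93 genes), and WT 2 rises on chromosome 3.

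Many targets of hypoxia-inducible factor (HIF) fell in KI, and the largest rise among genes with a mean of at least 5 CPM was that of Cyp1a1, the standard target of the aryl hydrocarbon receptor (AHR). Both factors bind DNA as partners of ARNT, and their core sites overlap: HIF reads ACGTG or GCGTG and AHR reads GCGTG. The 250 bases in front of the annotated start of 4 of these genes are shown so that the letters can be set beside the footprint values. Capitals mark ACGTG, or its reverse complement CACGT, in the first 3, and GCGTG in Cyp1a1. Sequences are from RefSeq on GRCm38.p6, each 5′ to 3′ on the strand of its gene. They lie at chr11:120948817-120949066 (plus strand) for Slc16a3, chr12:54203875-54204124 (minus strand) for Egln3, chrX:106186850-106187099 (plus strand) for Pgk1 and chr9:57697363-57697612 (plus strand) for Cyp1a1.
Slc16a3: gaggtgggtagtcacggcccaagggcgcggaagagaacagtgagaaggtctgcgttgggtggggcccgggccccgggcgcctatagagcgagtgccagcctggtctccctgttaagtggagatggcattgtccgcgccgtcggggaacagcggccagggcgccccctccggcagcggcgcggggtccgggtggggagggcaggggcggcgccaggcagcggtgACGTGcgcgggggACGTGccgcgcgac
Egln3: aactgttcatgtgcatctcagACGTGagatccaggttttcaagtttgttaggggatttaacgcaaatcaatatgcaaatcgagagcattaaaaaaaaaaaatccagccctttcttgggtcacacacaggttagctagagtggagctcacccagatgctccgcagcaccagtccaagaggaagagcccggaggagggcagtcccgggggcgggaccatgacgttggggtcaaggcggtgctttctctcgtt
Pgk1: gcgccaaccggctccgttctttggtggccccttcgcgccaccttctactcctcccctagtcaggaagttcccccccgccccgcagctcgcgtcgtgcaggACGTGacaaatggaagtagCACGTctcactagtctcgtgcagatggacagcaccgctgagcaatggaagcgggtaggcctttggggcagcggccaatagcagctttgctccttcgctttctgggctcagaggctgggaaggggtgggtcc
Cyp1a1: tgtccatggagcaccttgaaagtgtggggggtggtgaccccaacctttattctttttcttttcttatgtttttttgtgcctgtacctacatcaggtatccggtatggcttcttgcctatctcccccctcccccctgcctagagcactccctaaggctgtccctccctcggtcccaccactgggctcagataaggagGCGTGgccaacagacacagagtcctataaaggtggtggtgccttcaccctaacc
ACGTG on either strand was found 2 times in front of Slc16a3 and Pgk1 and 1 time in front of Egln3. Of 24 HIF pathway genes with a known promoter, 15 held it (62.5%), as did 4477 of all 27025 promoters (16.6%). GCGTG was found in 14 of the 24 (58.3%), in 5 of 13 AHR pathway genes (38.5%) and in 7624 of all promoters (28.2%). No AHR pathway promoter of the 13 held ACGTG within this window. A match describes the letters and is not a site shown to be bound.

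Of 12806 genes tested, 3250 differed between KI and WT in LIF/2i (25.4%) at an adjusted p under 0.05 by edgeR's quasi-likelihood test with Benjamini-Hochberg adjustment. Footprints were higher in KI for 1773 genes (13.8%) and lower for 1477 (11.5%), and the counts for gene lists are read against these shares. The split depended on the scaling: with library totals in place of TMM 1322 genes were higher and 1935 lower, and the median fold change was −0.10. Under that scaling the medians of the naive, core, MEK and ERK, and unfolded protein response lists turned to −0.09, −0.00, −0.06 and −0.03. The median log2 fold change of KI over WT was 0.01 over all tested genes, 0.77 among genes called higher and −0.98 among those called lower. Falls were larger than rises: 715 genes fell and 549 rose by at least 1 on the log2 scale, and 183 and 136 by at least 2. The 3 KI libraries did not overlap the 3 WT libraries in 5094 genes (39.8%), which included 3082 of the called ones. In 1886 called genes KI 1 lay nearer to WT than KI 2 and KI 3 did, and in 884 farther away. The count of called genes was 1574 without KI 2, 2065 without KI 3 and 3888 without KI 1.

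The largest rises included an enzyme of xenobiotic metabolism, cytoskeletal genes and regulators of signalling. Cyp1a1, a cytochrome P450, was at 0.355, 0.587 and 0.246 CPM in the WT libraries and at 14.0, 64.5 and 41.5 CPM in KI. It rose by 6.60 on the log2 scale (SE 0.88, edgeR adjusted p = 6.1e-04), and the lowest KI library lay far above the highest WT library. Tagln, the actin-binding protein transgelin, was at 0, 0.587 and 0.492 CPM in WT and at 10.2, 48.4 and 37.8 CPM in KI (log2 6.30, SE 1.11). Rragb, a Rag GTPase that carries the amino acid signal to mTORC1, was at 2.48, 2.05 and 1.97 CPM in WT and at 8.86, 43.5 and 37.7 CPM in KI. Its rise was 3.80 (SE 0.53), or 4.23 (SE 0.22) with KI 1 left out in both media. In all of these KI 1 was the lowest KI library. Myo1f, an unconventional class I myosin, instead had 24.6, 21.0 and 16.5 CPM in KI against 0.709, 0.293 and 1.48 CPM in WT, so that the 3 KI libraries were alike. Other genes among the 15 largest rises were Heph, a ferroxidase that loads iron for export, Spry4, a feedback inhibitor of receptor tyrosine kinase signalling, and Rasgrp2, an activator of Rap1. Arg2, mitochondrial arginase, and Nt5e, which makes adenosine outside the cell, had their highest level in KI 1 (26.6 and 63.1 CPM). The call of Arg2 was lost without WT 1, WT 2 or KI 1 (edgeR adjusted p up to 0.083) and that of Nt5e without WT 2, WT 3 or KI 1 (up to 0.074).

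Among the largest falls were genes with hardly any footprints left in KI. Myo7a, an unconventional myosin of hair cells, was at 45.0, 36.7 and 30.5 CPM in WT and at 0.458, 1.41 and 1.27 CPM in KI (log2 −5.10, SE 0.35). Sash3, an adaptor of lymphocytes, fell by 5.26 (SE 0.59) from a lower level of 16.7, 10.3 and 8.36 CPM. Every KI library lay far below the lowest WT library for both genes. Sgpp1, which removes the phosphate of sphingosine-1-phosphate, was at 57.4, 45.5 and 57.0 CPM in WT and at 7.33, 6.40 and 10.7 CPM in KI. Casr, the calcium-sensing receptor, fell by 3.67 (SE 0.28) and Naalad2, a peptidase, by 3.47 (SE 0.38). These 5 genes kept their calls whichever library was left out. Gpld1, a phospholipase, had 23.8, 11.4 and 1.72 CPM in WT and a KI library at 1.68 CPM, so that its groups almost touched. H2ac18 and H3c14 fell by 3.10 and 3.06, but these histone genes have near-identical copies among which counts may have been split. By CPM difference the largest falls included MT-ND1, Ubr4, a ubiquitin ligase that lies in the chromosome 4 stretch, and Rhox5, an X-linked homeobox gene. Rhox5 went from 586, 841 and 534 CPM to 207, 135 and 196 CPM (log2 −1.87, SE 0.20).

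**Figure D2:**
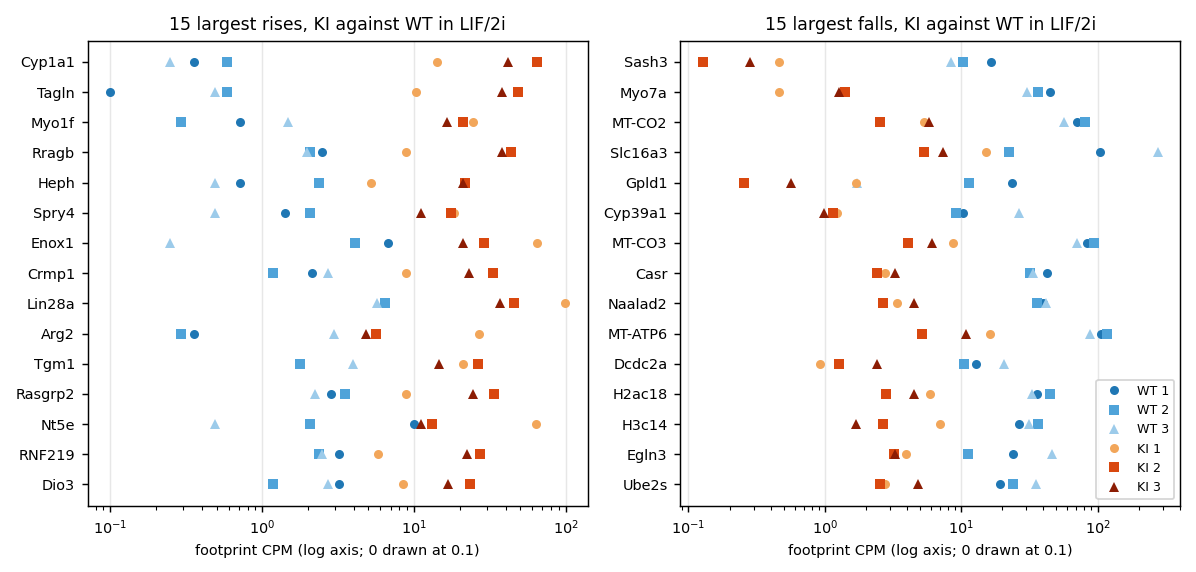
Footprint CPM (log axis) of the 15 genes with the largest rises and the 15 with the largest falls, 1 point for each of the 3 WT and 3 KI libraries. KI and WT points do not overlap in any of them, which the choice of genes required, and Gpld1 is closest to it (1.72 CPM in WT 3, 1.68 in KI 1).

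Footprints on the gene of eIF2α itself were higher in KI. Eif2s1 was at 111, 102 and 89.0 CPM in WT and at 138, 178 and 159 CPM in KI (log2 0.65, SE 0.13, edgeR adjusted p = 0.0040), and every KI library lay above every WT library. The other subunit genes did not pass the test: Eif2s2 was at −0.21 (SE 0.22), Eif2s3x at 0.18 (SE 0.18) and Eif2s3y at −2.65 (SE 1.08, edgeR adjusted p = 0.086). The Y-linked genes Ddx3y, Uty and Kdm5d, which are no eIF2 genes, were at −2.12, −2.28 and −2.04 and did not pass either. A list of 13 genes held the subunits of eIF2B, the exchange factor, and other partners of eIF2. Of these 4 rose and 0 fell: Eif2b2, Eif2b3, Bzw1 and Eif2a. Over all genes 13.8% rose and 11.5% fell. Of the eIF2B subunits themselves, Eif2b1 (0.28), Eif2b4 (−0.32) and Eif2b5 (0.10) did not pass. Eif2b3 rose by 0.66 (SE 0.15), while Eif2a lost its call without WT 2 or KI 2 (edgeR adjusted p up to 0.069) and Eif2b2 without any library other than WT 2 (up to 0.158). Bzw1, which competes with eIF5, was at 56.4, 59.9 and 48.4 CPM in WT and at 83.4, 112 and 93.2 CPM in KI. With RNase I it was at −0.09.

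Of the 4 eIF2α kinase genes Eif2ak2 rose, Eif2ak3 fell and the others did not pass. Eif2ak2, which encodes PKR, the kinase that senses double-stranded RNA, was at 17.0, 12.9 and 18.4 CPM in WT and at 30.5, 62.3 and 43.9 CPM in KI (log2 1.5, SE 0.27). Eif2ak3, which encodes PERK, the kinase of the endoplasmic reticulum, was at 43.3, 33.5 and 49.2 CPM in WT and at 13.6, 21.5 and 20.3 CPM in KI. It fell by 1.18 (SE 0.28, edgeR adjusted p = 0.0093), and it lies in the chromosome 6 stretch that is low in KI 1. KI 2 and KI 3, which lack that shift, also lay below all WT libraries. Eif2ak1 (0.17, SE 0.13) and Eif2ak4 (−0.38, SE 0.25), the kinases of haem shortage and amino acid shortage, did not pass. Of the phosphatase genes, Ppp1cb rose by 0.51 (SE 0.10), and the regulatory subunits Ppp1r15a (−0.24, SE 0.35) and Ppp1r15b (−0.13, SE 0.25) did not pass. Among the 12 kinase and phosphatase genes tested 3 rose and 1 fell.

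The stress response that phosphorylated eIF2α feeds showed no common direction in LIF/2i. Of 47 ATF4 and CHOP targets tested, 9 rose and 7 fell, with a median of −0.00 beside 0.01 over all genes. Without KI 1 12 of them were lower, and without KI 2 5 were higher and 4 lower. Atf4 itself was at 127, 118 and 115 CPM in WT and at 93.3, 117 and 99.1 CPM in KI (log2 −0.21, SE 0.19, adjusted p = 0.43 by edgeR). The groups overlapped. Asns, asparagine synthetase, was at 1216, 1356 and 1231 CPM in WT and at 1798, 1418 and 1819 CPM in KI, which is 0.40 higher (SE 0.19) and short of the threshold. Atf5, at 0.28 (SE 0.35), and Ddit3, which encodes CHOP, at −0.96 (SE 0.41), did not pass either. The members that fell were Gdf15, Stc2, Slc1a4, Pycr1, Vegfa, Ddit4 and Vldlr, of which Vegfa and Ddit4 are also HIF targets. Gdf15, a stress-induced hormone, went from 13.1, 11.4 and 14.8 CPM to 5.19, 4.48 and 3.25 CPM (log2 −1.60, SE 0.30). In LIF the same list had a median of −0.76. Among 18 mRNAs known to be translated through upstream reading frames when eIF2α is phosphorylated, 3 rose and 1 fell. Ifrd1 was at 30.8, 26.7 and 28.3 CPM in WT and at 40.6, 166 and 143 CPM in KI, its call being lost without KI 2 (adjusted p = 0.054).

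Among the ATF4 targets that rose, 5 were tRNA synthetase genes. The synthetases charge tRNAs with amino acids, and of 23 genes for the cytosolic enzymes and their scaffold 12 rose (52.2%) and 0 fell, with a median of 0.33. Over the 6 fits that left out 1 library each, between 8 and 11 rose. Mars1, for methionine, was at 210, 260 and 214 CPM in WT and at 393, 436 and 432 CPM in KI (log2 0.88, SE 0.14, edgeR adjusted p = 0.0011). Cars, for cysteine, was at 137, 150 and 130 CPM in WT and at 219, 234 and 230 CPM in KI. Aars, for alanine, was at 442, 521 and 444 CPM in WT and at 700, 723 and 704 CPM in KI. In these 3 genes the KI libraries, KI 1 included, lay close together and well above WT. Sars, Vars and Kars, for serine, valine and lysine, were at −0.00, −0.08 and 0.10 and did not pass. In LIF the list's median was 0.05, and with RNase I in LIF/2i it was 0.03. The mitochondrial synthetases had 4 of 17 higher and 0 lower (median 0.23).

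Genes that use and move amino acids were mixed. Of 27 transporters tested 7 rose and 2 fell. Slc7a3, a carrier of arginine and lysine, rose by 1.42 (SE 0.27), and Slc1a4 and Slc1a1, carriers of neutral and acidic amino acids, fell by 1.14 (SE 0.26) and 1.43 (SE 0.32). Only 2 rose without KI 2 and 3 without WT 2, WT 3 or KI 3. In amino acid signalling to mTORC1 7 of 35 rose and 5 fell. Deptor, an mTOR inhibitor, was at 120, 120 and 116 CPM in WT and at 59.1, 63.5 and 57.9 CPM in KI, with little spread within either group. Of 24 genes of serine and one-carbon metabolism 3 rose and 1 fell. The one that fell, Ahcy, is a gene with near-identical copies.

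Ribosome biogenesis had the largest share of genes that rose among the 51 lists examined. Of 30 factors that make, cut and assemble ribosomal RNA and its subunits 17 rose (56.7%) and 0 fell, with a median of 0.58. The list median against the WT mean was 0.60, 0.61 and 0.57 in KI 1, 2 and 3 and between −0.17 and 0.12 in the WT libraries. KI 1 thus did not stand apart here, and between 14 and 18 rose when 1 library was left out. Heatr1, of the small subunit processome, was at 261, 255 and 215 CPM in WT and at 492, 494 and 488 CPM in KI (log2 1.01, SE 0.14). Dkc1, the pseudouridine synthase, was at 163, 124 and 142 CPM in WT and at 280, 319 and 280 CPM in KI (log2 1.04, SE 0.12). Ncl, nucleolin, among the most abundant, was at 2444, 2056 and 1693 CPM in WT and at 3591, 3236 and 3026 CPM in KI. Rrn3, which recruits RNA polymerase I, rose by 0.70 (SE 0.11), and Npm1, nucleophosmin, by 0.95 (SE 0.14). Members that did not pass include Noc2l (−0.63, SE 0.29), the last gene of the chromosome 4 stretch. With RNase I the median was 0.27.

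Chaperones and S phase genes rose in part. Of 21 cytosolic and mitochondrial chaperones 7 rose and 3 fell, with a median of 0.24. Those that rose included subunits of the chaperonin that folds actin and tubulin, Tcp1 by 0.83 (SE 0.12), Cct3 by 0.73 (SE 0.14) and Cct5 by 0.51 (SE 0.10). The 3 that fell were stress-inducible: Hspb1 by 1.18 (SE 0.18), Hspb8 by 0.67 and Hspa1b by 1.59. With RNase I Cct3 was at −0.23 and Hspb1 at 0.31, of the opposite sign. Of 28 S phase genes 11 rose and 0 fell (median 0.27). Among them were the helicase subunits Mcm3, Mcm4, Mcm5, Mcm6 and Mcm7. With RNase I these were at −0.07, −0.09, 0.11, 0.10 and 0.09, and none of them was called. The count of S phase genes that rose was 5 without KI 2 and 7 without WT 2 or KI 3. Of 24 genes of G2 and M phase 7 rose and 1 fell, and without KI 2 only 2 rose. Hells, a chromatin remodeller of dividing cells, was at 723, 556 and 650 CPM in WT and at 1255, 1426 and 1343 CPM in KI.

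In the unfolded protein response, which controls the endoplasmic reticulum, 8 of 24 genes rose and 4 fell. Chaperones of the lumen rose: Hspa5 (BiP) by 0.57 (SE 0.13), Calr (calreticulin) by 0.62 (SE 0.11), Dnajb11 by 0.67 (SE 0.14) and Dnajb9 by 1.14 (SE 0.30). Xbp1, the transcription factor that IRE1 activates, fell from 211, 243 and 174 CPM to 106, 70.0 and 83.8 CPM (log2 −1.27, SE 0.17, edgeR adjusted p = 6.3e-04). The WT and KI libraries of Xbp1 did not overlap. Without WT 2 4 members rose, and without KI 2 only 2 fell. The list's median was 0.08.

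**Figure D3:**
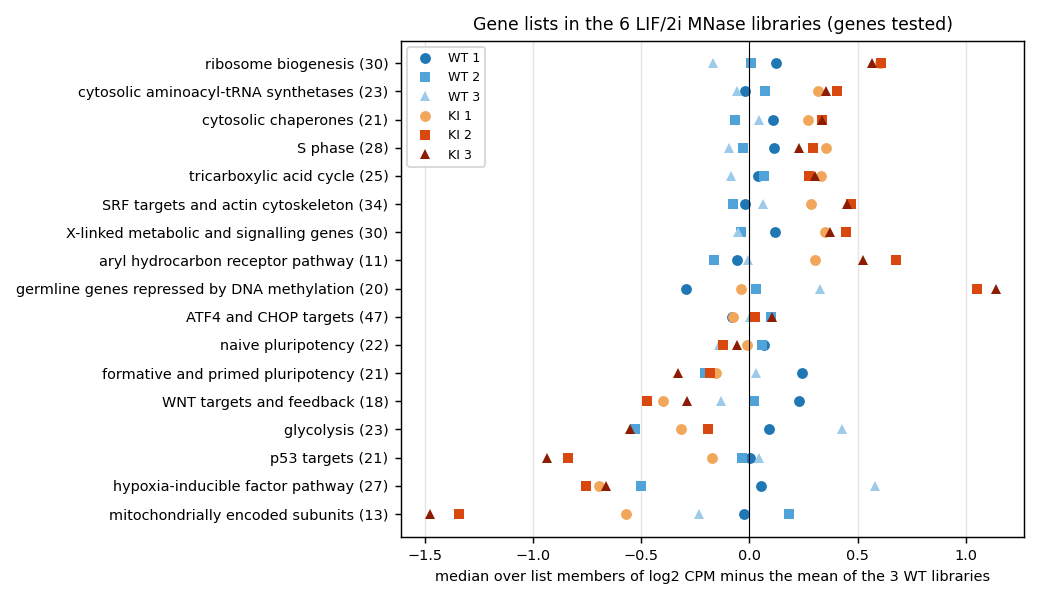
Median over the tested members of 17 gene lists of log2 CPM minus the mean of the 3 WT libraries, 1 point for each library and the number of genes in brackets. The ribosome biogenesis points of the 3 KI libraries (0.60, 0.61, 0.57) lie together, those of p53 targets and germline genes separate KI 1 from KI 2 and KI 3, and the WT points of the hypoxia-inducible factor pathway spread from −0.50 to 0.58.

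HIF is stable when oxygen or the prolyl hydroxylases that need oxygen are short, and it drives glucose uptake, glycolysis, angiogenesis and its own feedback. Of 27 pathway genes tested 15 fell and 1 rose (59.3% called, beside 25.4% of all genes), with a median of −0.78. Outside the shifted stretches 13 of 24 fell and 1 rose (median −0.83). Slc16a3, which exports lactate, was at 105, 22.3 and 276 CPM in WT and at 15.1, 5.38 and 7.34 CPM in KI (log2 −3.87, SE 0.67, edgeR adjusted p = 0.0021). Egln3, a HIF prolyl hydroxylase that HIF induces, was at 24.1, 11.2 and 46.0 CPM in WT and at 3.97, 3.20 and 3.25 CPM in KI (log2 −2.97, SE 0.48). Pgk1, a glycolytic kinase, was at 76.9, 39.3 and 96.9 CPM in WT and at 26.3, 17.3 and 20.04 CPM in KI (log2 −1.75, SE 0.29). In all 3 genes the WT libraries differed strongly, WT 3 being the highest and WT 2 the lowest, while every KI library lay below WT 2. The list medians against the WT mean were 0.06, −0.50 and 0.58 in WT 1, 2 and 3 and −0.69, −0.75 and −0.66 in KI 1, 2 and 3.

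The order WT 3, WT 1, WT 2 recurred in Pfkl, Ndrg1, P4ha1 and Bnip3, the last of which lies in the chromosome 7 stretch. Vegfa, the angiogenic factor, fell by 1.86 (SE 0.48), Ddit4, an inhibitor of mTORC1, by 1.89 (SE 0.53) and the glucose transporter Slc2a1 by 0.65 (SE 0.20). Hif1a, the regulated subunit itself, was the one that rose, from 169, 146 and 151 CPM to 293, 362 and 344 CPM (log2 1.10, SE 0.14). Arnt, its partner, fell by 0.72 (SE 0.20), but it lies in a chromosome 3 stretch that is high in WT 2, where it was at 401 CPM against 208 and 296 CPM in WT 1 and WT 3. Its call was lost without WT 2. The number of falls in the list depended on single libraries: 9 without WT 1, 6 without WT 3, 3 without KI 2 and 8 without KI 3. Slc16a3, Egln3, Pgk1 and Hif1a kept their calls in each of these fits. Vegfa lost its call without KI 2, and Ddit4 and Slc2a1 without WT 3, KI 2 or KI 3. With RNase I none of the list was called, the median was −0.67, and Slc16a3, Egln3 and Pgk1 were at −2.59, −2.08 and −0.71. In LIF the median was −0.30.

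Glycolysis, which overlaps that list, had 7 genes lower and 2 higher of 23 (median −0.64). The enzymes that fell were Pgk1, Aldoc by 2.22 (SE 0.47), Pgam1 by 1.14 (SE 0.27; 0.22 with RNase I), Gpi1 by 0.72 (SE 0.17) and Pfkl by 1.38 (SE 0.36), with the transporters Slc16a3 and Slc2a1. Aldoc was at 36.2, 25.8 and 127 CPM in WT and at 18.3, 10.1 and 12.4 CPM in KI. Here too WT 3 was far above the other libraries. Slc2a3, the high-affinity glucose transporter, went the other way, from 1587, 1770 and 1786 CPM to 2372, 2548 and 2702 CPM (log2 0.57, SE 0.11). Hk1, Hk2, Aldoa and Pfkm lay between −0.22 and 0.14 and did not pass. The median was −0.17 without WT 3, and 12 genes fell without WT 2.

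The tricarboxylic acid cycle and pyruvate dehydrogenase, which burn the product of glycolysis in mitochondria, had 11 of 25 genes higher and 1 lower, with a median of 0.32 (48% called, beside 25.4% of all genes). The other 13 did not pass, among them Sdhc (−0.52) and Suclg2 (−0.51). Dld, the dehydrogenase subunit shared by several complexes, was at 117, 108 and 134 CPM in WT and at 259, 259 and 254 CPM in KI (log2 1.10, SE 0.13, edgeR adjusted p = 4.3e-04). The KI libraries were nearly equal. Cs, citrate synthase, rose by 0.67 (SE 0.14), Ogdh by 0.76 (SE 0.16), Fh1, fumarase, by 0.72 (SE 0.12) and Sdha by 0.55 (SE 0.10). The one that fell was Pdk1, a kinase that turns pyruvate dehydrogenase off and a HIF target (−0.88, SE 0.27), while its relative Pdk3 rose by 1.18 (SE 0.19). The list median was 0.33, 0.27 and 0.30 in KI 1, 2 and 3 against −0.09 to 0.07 in WT. With RNase I it was 0.02.

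Of the 13 respiratory chain and ATP synthase subunits encoded in mitochondria 10 fell (76.9%) and 0 rose, with a median of −1.14. They are made by mitochondrial ribosomes, which do not use eIF2. MT-CO2 was at 70.9, 80.7 and 57.0 CPM in WT and at 5.34, 2.56 and 5.79 CPM in KI (log2 −3.93, SE 0.34). MT-CO3 was at 84.4, 93.6 and 70.8 CPM in WT and at 8.70, 4.10 and 6.07 CPM in KI (log2 −3.73, SE 0.26). MT-CYTB, in contrast, was at 689, 830 and 564 CPM in WT and at 656, 574 and 520 CPM in KI and did not pass (−0.25, SE 0.22). The falls thus ran from near 0 to more than 3 on the log2 scale among transcripts of 1 genome. With RNase I the list's median was −0.02 and none was called. MT-CO2 and MT-CO3 were at −0.57 and −0.54 there, of the same sign but much smaller. Among the genes that fell, MT-ND1, MT-CO1, MT-ND2 and MT-ND5 had the opposite sign there (0.10, 0.06, 0.25 and 0.32). MT-ND4 and MT-CYTB, which did not pass with MNase, were at 0.64 and 0.41 with RNase I. The difference between the nucleases was not tested.

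**Figure D4:**
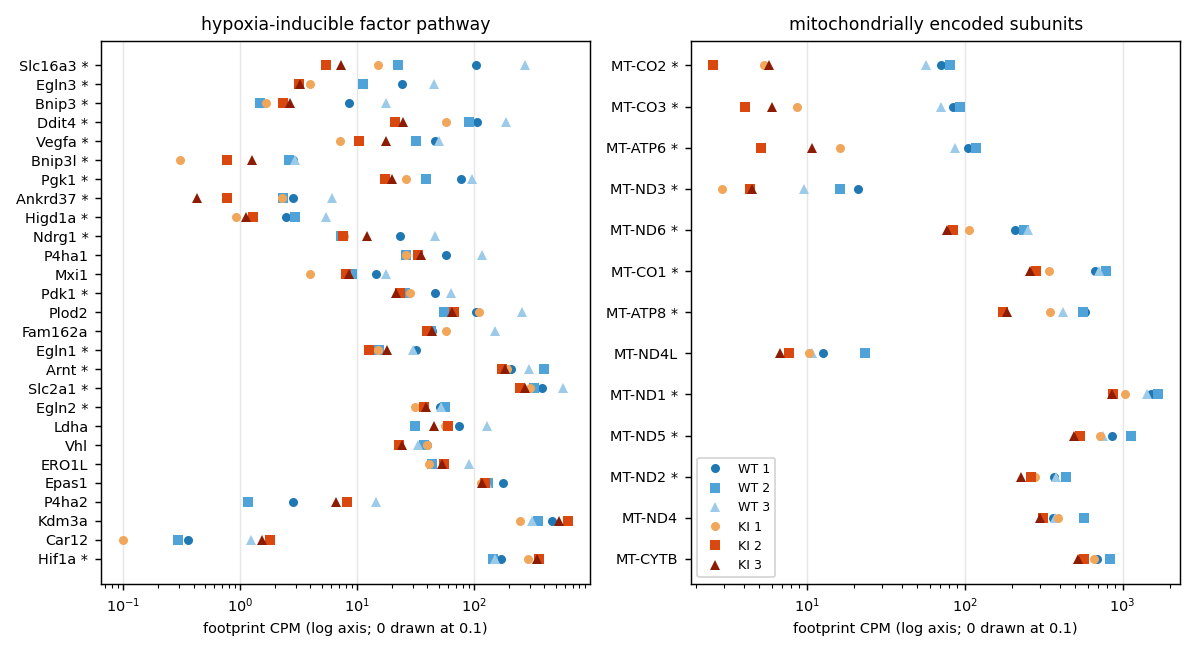
Footprint CPM (log axis) of the tested genes of the hypoxia-inducible factor pathway (left) and of the mitochondrially encoded subunits (right), 1 point for each library; an asterisk marks genes past the threshold of 0.05. Slc16a3 ranges from 22.3 to 276 CPM in WT and from 5.38 to 15.1 in KI, and MT-CO2 from 57.0 to 80.7 in WT and from 2.56 to 5.79 in KI.

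The AHR pathway, which induces detoxifying enzymes, had 5 genes higher and 1 lower of 11 tested (median 0.46). Besides Cyp1a1, Tiparp, a feedback inhibitor of AHR, was at 35.1, 23.2 and 27.0 CPM in WT and at 67.8, 130 and 94.6 CPM in KI (log2 1.78, SE 0.23, edgeR adjusted p = 5.6e-04). Cyp1b1 was at 8.32 and 7.34 CPM in KI 2 and KI 3 but at 0.458 CPM in KI 1, below the highest WT library at 0.587, and its call was lost in 5 of the 6 fits without 1 library. Ahr itself was at −0.87 (SE 0.31) and did not pass. Without KI 2 2 genes of the list rose. With RNase I Tiparp was at 0.12, Cyp1b1 at 0.63, and Cyp1a1 was too low to be tested. Cyp1a1 was at 1.18 and 2.19 CPM in WT and at 1.41 and 1.86 CPM in KI there, so its rise was not seen with RNase I. In LIF Cyp1a1 was at 0.09 and Tiparp at 0.64. The interaction with medium did not pass for Cyp1a1 (adjusted p = 0.085).

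Oxidant defence and metal genes were mixed: 4 of 18 NRF2 targets and glutathione genes rose and 2 fell, and 4 of 23 genes of iron and copper handling rose and 0 fell. Prdx1, a peroxidase, rose by 0.81 (SE 0.15), and Slc39a14, a zinc and iron importer, by 2.39 (SE 0.25). Gpx4, which protects lipids from oxidation, was at 11.3, 13.2 and 9.59 CPM in WT and at 2.60, 4.35 and 4.23 CPM in KI (log2 −1.60, SE 0.32). Sphingolipid metabolism had 4 higher and 1 lower of 23, with Sgpp1 as the one that fell. Cholesterol synthesis had 1 higher and 3 lower of 23, and the pentose phosphate pathway 3 and 2 of 11.

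Of 22 naive pluripotency genes 4 rose and 1 fell (22.7% called, beside 25.4% of all genes, median 0.02). Of 17 core genes 5 rose and 2 fell (41.2% called, median 0.09). Nanog was at 1256, 1431 and 1505 CPM in WT and at 1325, 1298 and 1303 CPM in KI (−0.09, SE 0.15), and Pou5f1 at −0.00 (SE 0.14). Sox2 was at 839, 871 and 958 CPM in WT and at 586, 527 and 574 CPM in KI. It fell by 0.66 (SE 0.14, edgeR adjusted p = 0.0059) with no overlap. Esrrb was higher by 0.43 (SE 0.14), a call that was lost without KI 1 (adjusted p = 0.052 with KI 1 left out in both media) and in 4 other fits without 1 library. Zfp57, which guards imprints, rose by 0.82 (SE 0.14), and Dppa2, which primes early embryonic genes, by 1.08 (SE 0.20).

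Of 21 genes of the formative and primed states, the states that follow naive pluripotency, 5 fell and 1 rose (median −0.25). Sox3 went from 15.6, 9.10 and 11.6 CPM to 5.65, 4.99 and 3.81 CPM and Zic5 from 40.4, 37.0 and 32.2 CPM to 18.3, 20.5 and 19.8 CPM. Lef1, a partner of beta-catenin, was at 44.0, 29.1 and 23.4 CPM in WT and at 9.62, 11.3 and 10.2 CPM in KI (log2 −1.62, SE 0.29). It lies in the chromosome 3 stretches in which WT 1 is low and WT 2 high, and WT 1 was its highest library. With RNase I Sox3 was at 0.14 and Lef1 at −2.50. The LIF and STAT3 pathway had 0 higher and 1 lower of 13, the feedback inhibitor Socs3 (−0.96, SE 0.20).

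LIN28 proteins block the maturation of let-7 microRNAs and are higher after the naive state. Lin28a was at 6.38, 6.46 and 5.66 CPM in WT and at 98.6, 45.3 and 36.7 CPM in KI (log2 3.29, SE 0.38, edgeR adjusted p = 4.3e-04). KI 1 was highest, and Lin28a lies in the chromosome 4 stretch, where the median of all genes was −0.98 in KI 2 and −0.92 in KI 3. Lin28b rose by 2.29 (SE 0.52) and Igf2bp1, a let-7 target, by 0.50 (SE 0.12). Of 16 genes of the axis 6 rose and 2 fell, with 3 higher without KI 2. Hmga1, a let-7 target that fell by 2.71, has near-identical copies and was at 0.48 with RNase I.

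Although both genotypes were grown with the MEK inhibitor, single genes that ERK induces rose in KI. The activity of MEK was not measured. As a list they did not stand out: of 22 tested 4 rose and 1 fell (22.7% called, beside 25.4% of all genes, median 0.04). Spry4 was at 1.42, 2.05 and 0.492 CPM in WT and at 18.3, 17.5 and 11.2 CPM in KI (log2 3.60, SE 0.46). Ccnd1, cyclin D1, was at 26.2, 13.8 and 17.2 CPM in WT and at 98.9, 85.6 and 66.6 CPM in KI (log2 2.15, SE 0.29). Myc rose by 2.32 (SE 0.55), from 7.80, 4.99 and 3.20 CPM to 46.0, 22.1 and 10.0 CPM. In each of these the KI libraries lay above all WT libraries, with KI 1 highest. The fourth was Il17rd, an inhibitor of FGF signalling (0.75, SE 0.17). The gene that fell was Ier3, an early response gene, at 9.22, 10.9 and 89.7 CPM in WT and 5.19, 6.66 and 5.65 CPM in KI. Its fold change ran from −3.11 to −0.79 over the fits without 1 library, as WT 3 set the WT mean. Eras, a Ras protein of embryonic stem cells that is always active, was at 5.67, 9.10 and 8.11 CPM in WT and at 39.7, 28.3 and 30.9 CPM in KI. It rose by 2.09 (SE 0.19). Of 15 FGF ligands and receptors tested 2 rose and 1 fell, with Fgf17 at 0.355, 0.293 and 0 CPM in WT and at 5.65, 7.94 and 6.63 CPM in KI.

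WNT targets had 1 gene higher and 3 lower of 18 (median −0.43), with the repressor Tcf7l1 at −0.90 (SE 0.25) and Tcf7l2 at −0.80 (SE 0.22). Tcf7l1 lost its call without WT 2. The gene that rose, Bmp4, was at 0.709, 0 and 0.246 CPM in WT and at 5.04, 2.18 and 1.69 CPM in KI, and its call was lost without WT 2 or WT 3. In BMP, Nodal and TGF-beta signalling 6 of 31 rose and 2 fell, near the 25.4% called among all genes. Those that rose included the receptors Tgfbr1 (1.16, SE 0.18) and Acvr2a (1.87, SE 0.31), which were at 0.26 and 0.10 with RNase I. YAP and TEAD targets had 1 higher and 4 lower of 18, with 5 higher without KI 1.

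Of 34 cytoskeletal genes and targets of serum response factor (SRF) 8 rose and 2 fell, with a median of 0.34. The share called, 29.4%, was near the 25.4% of all genes. Vcl, vinculin, was at 241, 267 and 226 CPM in WT and at 363, 449 and 380 CPM in KI (log2 0.70, SE 0.13). Myl9, a regulatory light chain, was at 1.06, 3.23 and 3.44 CPM in WT and at 10.1, 15.4 and 11.7 CPM in KI (log2 2.21, SE 0.45). Tpm1, tropomyosin, rose by 1.58 (SE 0.37), the myosin heavy chain Myh10 by 0.92 (SE 0.20) and Pdlim7 by 1.43 (SE 0.29). For Tpm1 KI 1 (68.3 CPM) lay between WT (27.6 to 51.4) and KI 2 and KI 3 (149 and 130). In LIF the list's median was −0.18. Of 26 myosin heavy chains 4 rose and 4 fell, so that the falls of Myo7a and the rise of Myo1f had no common direction.

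Targets of p53 lay lower in KI without many calls. Of 21 tested 4 fell and 0 rose, fewer than the share called among all genes (19.05% beside 25.4%), though all 21 had negative fold changes and the median was −0.70. The list medians were −0.17 in KI 1, −0.84 in KI 2 and −0.93 in KI 3, and with KI 1 left out in both media 14 fell (median −0.86). Ccng1 was at 210, 204 and 240 CPM in WT, at 207 CPM in KI 1 and at 74.9 and 66.1 CPM in KI 2 and KI 3. Only Gdf15 kept its call whichever library was left out. Apaf1, of the apoptosome, fell by 0.89 (SE 0.26), a call lost without WT 2, WT 3, KI 2 or KI 3. The median with RNase I was −0.49.

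Germline genes that DNA methylation represses in somatic cells had 6 higher and 3 lower of 20, with a median of 0.81. Sycp3, of the synaptonemal complex, was at 11.3, 12.03 and 21.6 CPM in WT and at 21.4, 74.5 and 67.9 CPM in KI (log2 1.85, SE 0.41). Sycp1 was at 3.55, 2.64 and 4.43 CPM in WT and at 5.34, 30.7 and 33.3 CPM in KI (log2 2.69, SE 0.67). KI 1 was near WT and KI 2 and KI 3 far above it in both. The list medians were −0.04 in KI 1, 1.05 in KI 2 and 1.14 in KI 3. Without KI 1 11 rose, 8 rose without WT 3, and 4 in each of the other fits. Tex101 and Dazl, which fell by 2.77 (SE 0.38) and 1.10 (SE 0.31), were low in all 3 KI libraries, but the call of Dazl was lost without WT 1, WT 2, KI 2 or KI 3. Of 15 genes of the DNA methylation machinery 1 rose and 3 fell, and of 27 Polycomb genes 3 rose and 1 fell.

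Imprinted genes had 5 higher and 3 lower of 21 (median 0.41). Grb10, a growth inhibitor, fell from 48.6, 75.4 and 33.7 CPM to 16.9, 14.9 and 15.8 CPM, and Mest rose from 23.4, 27.6 and 34.4 CPM to 89.2, 75.2 and 56.7 CPM. Phlda2, which restrains placental growth, was at 13.3 CPM in KI 1 and at 53.3 and 44.6 CPM in KI 2 and KI 3, against 2.48, 4.99 and 10.8 CPM in WT. Of 30 X-linked metabolic and signalling genes 9 rose and 2 fell (median 0.43). The 2 that fell were Rhox5 and Pgk1, each also in another list. Among markers of other lineages, 2 of 15 endoderm genes rose and 4 fell (40% called, median −0.27), with Gata6 at 9.22, 6.75 and 5.41 CPM in WT and 1.07, 0.896 and 1.41 CPM in KI, and 1 in each direction among 13 trophoblast genes. Of 8 neuroectoderm genes none was called by edgeR, 4 had an unadjusted p under 0.05, and 1 was called by DESeq2. Their median was 0.63, and they summed to 81.9 to 126 CPM in WT and 117 to 171 CPM in KI. Of 17 fibroblast markers 3 rose and 0 fell (17.6% called), with a median of 0.95, while Lum and Dcn were at 0. The part of such cells in the results was not tested.

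In LIF alone the same genotypes allowed a test of whether the KI effect differed between the media. This interaction of genotype and medium passed in 43 of 12806 genes (0.336%), of which 32 were also called in LIF/2i. Same-numbered KI libraries deviated together across the media (r = 0.56, 0.32 and 0.39), and WT libraries hardly did (r = 0.02, 0.08 and 0.03). KI 2 and KI 3 did so across numbers too (r = 0.40 and 0.37). KI 1 of either medium went against KI 2 and KI 3 of the other (r = −0.51 to −0.43). The KI pattern thus set KI 1 apart and did not separate KI 2 from KI 3. With the replicate number within each genotype as a block 218 genes passed, all 43 among them. In LIF 1718 genes were called (13.4%), 1051 of them also in LIF/2i in the same direction and 16 in the opposite one. Among named genes whose interaction passed, Lin28a had the second largest positive difference: its KI fold change was 3.29 in LIF/2i and −0.17 (log2) in LIF. Spry4 was at 3.60 and −0.15, and Eras at 2.09 and 0.16. For these 3 genes the KI effect was large with the inhibitors and near 0 without them. Sox3 and Lef1 had fold changes of −1.32 and −1.62 in LIF/2i and of 1.19 and 1.03 in LIF, of opposite sign. Aars, Cars and Yars were higher in LIF/2i (0.60, 0.71 and 0.66) and at −0.45, −0.48 and −0.34 in LIF. Asns, which ATF4 also controls, was at 0.40 in LIF/2i and −1.43 in LIF (interaction 1.84, edgeR adjusted p = 0.012). The count of interaction calls was 20 without WT 1, 27 without WT 3, 22 without KI 2 and 148 without KI 1.

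**Figure D5:**
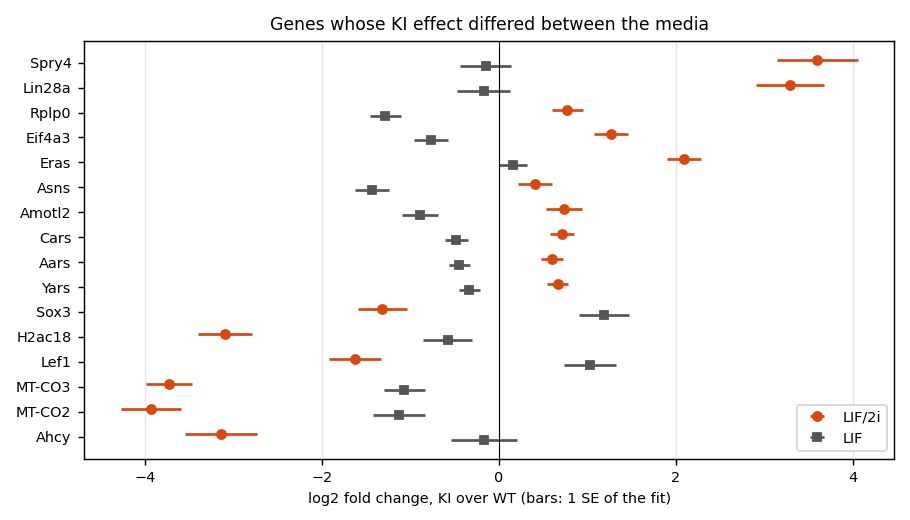
Log2 fold change of KI over WT in LIF/2i (circles) and in LIF (squares) with bars of 1 SE, for the 16 named genes whose effect differed between the media. Spry4, Lin28a and Eras are high in LIF/2i and near 0 in LIF (3.60, 3.29 and 2.09 against −0.15, −0.17 and 0.16), and Sox3 and Lef1 have opposite signs in the 2 media.

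The direction was checked in the RNase I libraries, 2 KI and 2 WT in LIF/2i. Of 12095 genes 28 were called (0.232%), 14 higher and 14 lower, and all 28 had been called with MNase in the same direction. Among the genes called with MNase and tested with both nucleases, 2493 of 3124 had the same sign (79.8%), against 8123 of 12046 of all genes (67.4%). The share was 83.5% for genes lower in KI and 76.9% for genes higher. Myo1f (6.25), Lin28a (3.50), Myo7a (−4.52) and Naalad2 (−3.91) changed in the same direction and passed with RNase I too. Cyp1a1 had too few counts to be tested, and its KI libraries lay within the WT range. The mitochondrially encoded subunits, as given above, did not pass. The RNase I libraries are replicates 1 and 2 of each genotype, and they carried most of the shifted stretches of the MNase libraries of the same number. On chromosome 6 the median was −1.05 in KI 1 and −0.06 in KI 2, and on chromosome 4 it was 0.02 and −0.89. The chromosome 13 stretch was not shared: in KI 2 it was at −0.70 with MNase and at 0.19 with RNase I. The agreement in sign is thus between libraries that share most of these features, and it is no independent check.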

How the data were processed

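The authors deposited raw counts of footprints per gene, 22416 genes in 20 libraries. The submitters' processing notes name cutadapt 3.4, Bowtie 1.3.0 and UMI-tools 1.0.1; which build the reads were aligned to is not given in the sources used. Symbols were given mouse spelling through the RefSeq table of GRCm38.p6 (21755 genes; 661 kept their name in the file), which also gave gene order and promoters. From the counts, edgeR 4.0.16 (filterByExpr, TMM, quasi-likelihood test) in R 4.3.3 fitted the 12 MNase libraries with a mean for each genotype and medium. Calls had a Benjamini-Hochberg adjusted p under 0.05. CPM are counts scaled to the TMM-adjusted total, fold changes are log2 of KI over WT, and medians per library used log2(CPM + 1). The RNase I libraries were fitted apart, for direction only.

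The text names the 15 largest rises and falls, the 6 smallest p and the 8 largest gains and losses in CPM among called genes without overlap, with a mean of at least 5 CPM for the first 3 sets. It also names the 5 largest interactions in each direction, all eIF2 genes, and up to 4 members of each of 51 lists with the smallest p, plus members needed to describe a list. Members and lists were chosen with earlier results of these data known. Of 978 list entries 974 were found. Alternatives were no TMM, no filter, the 6 libraries alone, thinned counts, a replicate block, DESeq2 1.42.0, leaving out each library, and, added after seeing the data, leaving out the shifted stretches, alone or with KI 1, and a replicate block within each genotype for the interaction. Leaving out KI 1 in both media was also run.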

Additional observations from a re-analysis of the deposited data

Results flagged for a closer look

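In 16 named genes the effect of KI differed between LIF/2i and LIF by the interaction test of edgeR. The log2 fold change was larger in LIF/2i for Spry4 (3.60 against −0.15 in LIF, a difference of 3.75, adjusted p = 0.012), Lin28a (3.29 against −0.17, difference 3.46, adjusted p = 0.0095) and Eras (2.09 against 0.16, difference 1.93, adjusted p = 0.0085). Genes with a positive value in LIF/2i and a negative one in LIF were Eif4a3 (1.26 and −0.77, difference 2.04, adjusted p = 0.0086), Rplp0 (0.77 and −1.28, difference 2.06, adjusted p = 0.0084), Asns (0.40 and −1.43, difference 1.84, adjusted p = 0.012) and Amotl2 (0.73 and −0.89, difference 1.63, adjusted p = 0.029). The synthetase genes were of the same kind: Cars (0.71 and −0.48, difference 1.19, adjusted p = 0.013), Aars (0.60 and −0.45, difference 1.04, adjusted p = 0.021) and Yars (0.66 and −0.34, difference 1.00, adjusted p = 0.023).

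The sign was turned the other way in Lef1 (−1.62 in LIF/2i and 1.03 in LIF, difference −2.65, adjusted p = 0.014) and Sox3 (−1.32 and 1.19, difference −2.50, adjusted p = 0.014). The fall was larger in LIF/2i for MT-CO2 (−3.93 against −1.13, difference −2.81, adjusted p = 0.014), MT-CO3 (−3.73 against −1.07, difference −2.66, adjusted p = 0.0085), Ahcy (−3.14 against −0.17, difference −2.98, adjusted p = 0.035) and H2ac18 (−3.10 against −0.58, difference −2.52, adjusted p = 0.018). Rplp0, Eif4a3, Ahcy and H2ac18 have near-identical copies among which counts may have been split, and their values are uncertain.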

How the results depend on the processing

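The count of called genes, 3250 (1773 higher, 1477 lower), was 1639 (928 and 711) with all libraries thinned to the same total, 3600 by DESeq2, 2349 with the 6 libraries alone and 3054 without the filter. Without TMM it was 3257, of which 1322 were higher and 1935 lower, with a median fold change of −0.10 against 0.01. Leaving out 1 library gave 1574 to 3888 calls, 910 to 2063 higher and 664 to 1825 lower, and 20 to 148 interaction calls. Without KI 1 in both media 4949 genes were called, 2558 higher and 2391 lower, with 437 interactions; with the shifted stretches left out as well, 2411 were higher and 2231 lower, with 502 interactions. DESeq2 called 215 interactions, and the replicate block within each genotype, added after seeing the data, 218. RNase I gave 28 calls, 14 higher and 14 lower. Same-numbered libraries did not deviate together (correlations 0.066, −0.099 and 0.118), so the numbers were not used for pairing across genotypes; with the replicate block 3426 genes were called, 1835 higher and 1591 lower, and 55 interactions. The cause of these differences was not tested.

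With RNase I the sign turned, on the log2 scale, in Cltc (−0.48), MT-ND1 (0.10), MT-CO1 (0.064), H1f4 (0.0074), Sox3 (0.14), Bzw1 (−0.093), Ppp1cb (−0.075), Eprs (−0.012), Mat2a (−0.0060), Mlst8 (−0.32), Nr5a2 (−0.17), Pou3f1 (0.039), Hmga1 (0.48), Fgfbp1 (−0.57), Amotl2 (−0.19), Nfe2l2 (−0.34), G6pdx (−0.21), Fh1 (−0.037), Nqo1 (−0.071), Sptlc1 (−0.049), Sgpl1 (−0.18), Asah1 (−0.48), Hmgcs1 (−0.46), Rrm1 (−0.041), Pola1 (−0.014), Mcm3 (−0.068), Mcm4 (−0.091), Mbd2 (0.081), Tet3 (0.041), Rnf2 (−0.058), Hspb1 (0.31), Cct3 (−0.23), Lamc1 (−0.50), Sox17 (0.016), Pgam1 (0.22) and Hsp90b1 (−0.025). H1f4 lies in the chromosome 13 stretch and Mat2a in that of chromosome 6. MT-ND2 and MT-ND5, outside the set of named genes, turned too (0.25 and 0.32). No other setting turned a called named gene. Of 280 named genes, 222 kept sign and call with thinned counts and 272 by DESeq2.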
